A study of Mus musculus with 6 samples.

Results

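The insulin-like growth factor (IGF) axis was followed here through 8 genes: the ligand gene Igf1, the receptor gene Igf1r and the binding protein genes Igfbp2, Igfbp3, Igfbp4, Igfbp5, Igfbp6 and Igfbp7. They were taken by symbol from the gene list of the deposited single-cell matrices, where all 8 were found among 31053 genes in both the kidney and the tumor matrix. The question behind the series is how the way a tissue is broken into single cells changes the cells that are recovered. The 6 droplet libraries are 1 for each of 3 digestion protocols in each of 2 tissues, so no difference between protocols has a replicate check. The kidneys were from male C57BL/6 mice of 12 weeks and the mammary tumors from female MMTV-PyMT mice of 10 weeks, in which the mouse mammary tumor virus promoter drives the polyoma middle T oncogene mainly in mammary epithelium. The control library of each tissue came from minced tissue digested for 60 min. The platform libraries held cells drawn from a microfluidic digestion device at a 15 min and at a 60 min interval. These cells also passed through a dissociation and filter device. In the study's interval format the 15 min cells are taken out, fresh collagenase is added and the tissue left is digested further. The 60 min interval thus holds cells released after the 15 min elution. All 6 used type I collagenase, DNase and red cell lysis, and only cells negative for the dead-cell dye SytoxBlue were loaded. Each library was a single replicate, and the control and the device conditions of a replicate were run on tissue of the same mouse, so differences between mice were not sampled within a tissue. Strain, sex, age and library set differ between kidney and tumor together with the tissue, so these cannot be told apart in any comparison across tissues.

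IGF-1 is a secreted growth factor that circulates and also acts on neighbouring cells by binding the IGF-1 receptor, a tyrosine kinase. Most IGF in tissue fluid is held by binding proteins, which lengthen its life, hand it on or keep it from the receptor, and proteases release it by cutting them. IGFBP-7 binds IGFs weakly and is better known as an extracellular matrix protein of vessels, and the kidney is a known target of the growth hormone and IGF-1 system.

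The genes lie on 6 chromosomes of the mouse assembly GRCm38 (mm10). Igfbp2 (ENSMUSG00000039323, chr1:72824503-72852474, plus strand) and Igfbp5 (ENSMUSG00000026185, chr1:72857932-72874884, minus strand) are neighbours separated by 5457 bases, with their 3′ ends facing each other. Igfbp3 (ENSMUSG00000020427, chr11:7206086-7213923, minus strand) and Igfbp4 (ENSMUSG00000017493, chr11:99041244-99054392, plus strand) share a chromosome but are far apart. Igf1 (ENSMUSG00000020053) is at chr10:87858265-87937042 on the plus strand and overlaps the antisense gene Igf1os. Igf1r (ENSMUSG00000005533) is at chr7:67952827-68233668 and Igfbp6 (ENSMUSG00000023046) at chr15:102144362-102149511, both on the plus strand. Igfbp7 (ENSMUSG00000036256) is at chr5:77349240-77408041 on the minus strand and overlaps Polr2b and the antisense gene Gm34648 on the plus strand.

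Shown for 4 binding protein genes with well-counted levels in both tissues are the bases just before their RefSeq start (GRCm38.p6), since these differ in their core promoter letters. Capitals mark matches to TATAAA, to TATATA or to GGGCGG on either strand, and the runs read 5′ to 3′ on the gene's own strand. Upstream bases were found in the RefSeq table for 7 of the 8 genes.
Igfbp3, chr11:7213924-7214173: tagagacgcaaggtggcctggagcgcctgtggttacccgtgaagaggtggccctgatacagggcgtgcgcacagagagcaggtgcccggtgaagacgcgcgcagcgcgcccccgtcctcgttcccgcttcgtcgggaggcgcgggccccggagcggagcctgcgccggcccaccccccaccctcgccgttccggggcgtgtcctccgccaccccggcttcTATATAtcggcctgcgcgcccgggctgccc
Igfbp4, chr11:99040994-99041243: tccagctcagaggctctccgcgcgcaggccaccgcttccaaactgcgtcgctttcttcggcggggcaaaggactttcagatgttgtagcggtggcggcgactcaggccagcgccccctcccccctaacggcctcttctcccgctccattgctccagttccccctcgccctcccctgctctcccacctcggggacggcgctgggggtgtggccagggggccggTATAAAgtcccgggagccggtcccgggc
Igfbp5, chr1:72874885-72875115: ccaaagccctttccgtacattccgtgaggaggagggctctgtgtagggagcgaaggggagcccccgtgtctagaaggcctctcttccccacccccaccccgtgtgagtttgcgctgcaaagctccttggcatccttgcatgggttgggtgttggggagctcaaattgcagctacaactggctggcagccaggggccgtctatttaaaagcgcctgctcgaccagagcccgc
Igfbp7, chr5:77408046-77408295: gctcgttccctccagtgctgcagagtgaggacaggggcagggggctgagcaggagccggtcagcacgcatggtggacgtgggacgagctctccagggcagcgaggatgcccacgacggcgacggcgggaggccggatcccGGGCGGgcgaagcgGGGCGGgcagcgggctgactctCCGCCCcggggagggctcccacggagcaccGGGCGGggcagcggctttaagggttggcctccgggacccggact
The Igfbp3 run holds TATATA beginning 30 bases before the RefSeq start, and the Igfbp4 run holds TATAAA beginning 28 bases before it. The Igfbp7 run holds GGGCGG or its complement CCGCCC 4 times, beginning 110, 96, 74 and 44 bases before the start. The 231 bases of the Igfbp5 run hold none of these letters. This run is cut where the annotated gene begins, so the bases nearest the RefSeq start are left out and were not searched. Over 32851 RefSeq promoters, 12.4% hold TATAAA in the 250 bases before the start, 5.25% hold TATATA and 32.7% hold GGGCGG, so each match is a common feature and is given as a description of the letters only.

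Each library had 8152 to 13719 barcodes, and the study's limits on genes per cell and mitochondrial share left 5736 to 9936 cells with 33644880 to 61434200 unique molecular identifiers (UMIs, each standing for 1 captured transcript). The median kept cell had 4583 to 9476 UMIs, and its median mitochondrial share was 20.4% in the kidney 15 min library against 7.38% and 8.59% in the kidney control and 60 min libraries, and 6.55% to 7.54% in the tumor. Pairs of libraries shared 13 to 211 barcodes, with the highest number between the 2 kidney platform libraries. Cells were put in a class when at least 3 of its 6 marker genes were detected and led the next class by at least 2; a class is named for its markers (endothelial-like and so on), and 80.2% to 94.9% of kept cells were placed. Summed over its own list, every named class had a higher marker level than any other class, with no listed marker at 0. The gate used these same markers, so this outcome follows from the gate and is no check of the class names. The margin was narrow for kidney dendritic cells, at 1243 per 1000000 UMIs against 708 in B lymphocytes. Levels are counts per 1000000 UMIs of the class or library (CPM), with exact Poisson 95% intervals that cover counting error only; shares of cells have exact binomial intervals with the same limit. A gene is called different between libraries when its CPM differed at least 2-fold with intervals apart, over genes with at least 30 UMIs in the pair. The kidney and tumor matrices were assembled and scaled separately, each by its own depth.

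Together the 8 genes made up 0.126%, 0.172% and 0.192% of all UMIs in kidney (control, 15 min, 60 min), and 0.412%, 0.671% and 0.493% in the tumor libraries in the same order. In whole libraries, fewer cells of a class and less RNA per cell cannot be told apart, so the levels per library come first as totals and the levels within classes after them.

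Igf1, the ligand gene, was at 21.7 CPM in the kidney control library, 2.41 in the 15 min library and 52.2 in the 60 min library. The 3 values have intervals apart, and the 15 min library was 8.99-fold below the control and the 60 min library 2.41-fold above it. In the tumor it stood at 4.48, 5.43 and 36.6 CPM, where the control and 15 min intervals overlap and the 60 min library was 8.17-fold above the control. The receptor gene Igf1r had the narrowest range over the libraries of each tissue: 33.9, 49.2 and 47.2 CPM in kidney and 11.3, 14.3 and 16.1 CPM in tumor, with no ratio reaching 2 in any of the 6 pairs.

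Igfbp3, which carries most of the IGF in blood, was at 81.8, 38.4 and 202 CPM in the kidney libraries and 70.4, 98.0 and 194 CPM in the tumor libraries. In both tissues the 60 min interval was highest, while the 15 min interval was the lowest in kidney only. Igfbp5, a matrix-associated binding protein, followed the same order in kidney at 337, 190 and 902 CPM, but in the tumor it was highest in the 15 min library at 6069 CPM, against 3538 in the control and 2785 in the 60 min library.

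Igfbp4, an inhibitory binding protein, and Igfbp7 had the opposite order in kidney. Igfbp4 was at 183, 294 and 148 CPM there and Igfbp7 at 602, 1142 and 563 CPM, highest in the 15 min library for both. In the tumor Igfbp4 was at 54.9, 63.1 and 250 CPM and Igfbp7 at 408, 423 and 1566 CPM, highest at 60 min for both.

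Igfbp2, a binding protein of fetal and epithelial tissue, was scarce in kidney, with 152 UMIs counted after the control digest, 0 at the 15 min interval (which allows up to 0.0488 CPM, at 3 UMIs) and 2 at the 60 min interval. Of the 152 control UMIs, 78.3% came from 1 cell that no class claimed, so the control level is mostly that of this cell. In the tumor Igfbp2 was at 10.7, 15.1 and 37.2 CPM. Igfbp6, which prefers IGF-2, was also scarce in kidney with 26, 11 and 68 UMIs (0.773, 0.179 and 1.30 CPM), and stood at 22.3, 22.7 and 41.5 CPM in the tumor.

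**Figure D1:**
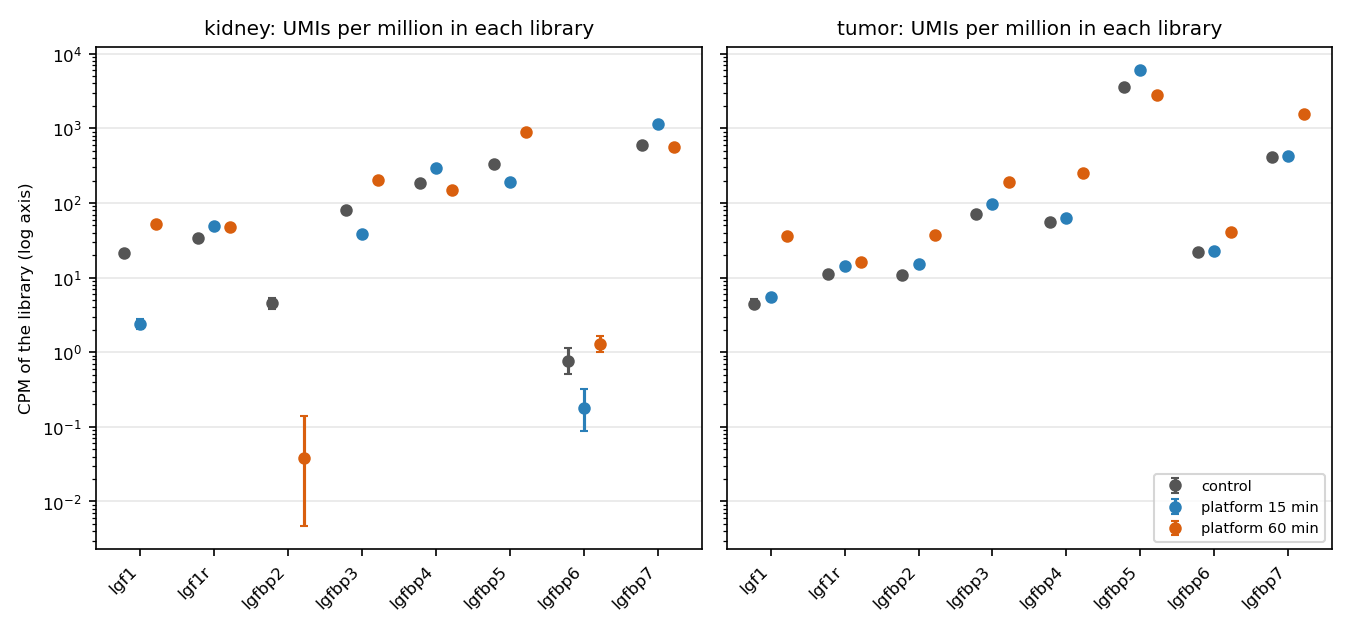
Level of each of the 8 genes in CPM (log axis) in the 3 kidney and the 3 tumor libraries, 1 point per library with exact 95% Poisson bars, most of them smaller than the point. The kidney 60 min points lie at least 2-fold above the control for Igf1, Igfbp3 and Igfbp5. The tumor 60 min points lie at least 2-fold above it for Igf1, Igfbp2, Igfbp3, Igfbp4 and Igfbp7. Igfbp2 at 0 in the kidney 15 min library has no point.

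In the kidney 15 min library against its control, 8 of 8 members had enough UMIs and 4 were called lower (Igf1, Igfbp2, Igfbp3 and Igfbp6) and 0 higher, where 26.6% of all genes tested were called lower and 1.98% higher. The median of the genes tested stood at 0.761 of its control level. Scaling by median-of-ratios size factors (median scaling) in place of the total gave 3 members higher (Igf1r, Igfbp4, Igfbp7) and 3 lower (Igf1, Igfbp2, Igfbp6). These factors were taken over genes with a UMI in all 3 libraries. The directions of Igf1r, Igfbp4 and Igfbp7 did not turn, while Igfbp3 was no longer called. The share of all genes called was not counted under this scaling, so these counts have no background. In the 60 min library against control 3 of 8 were called higher (Igf1, Igfbp3, Igfbp5) and 1 lower (Igfbp2), against 8.58% higher and 0.813% lower for all genes. Between the platform libraries, 60 min against 15 min, 7 members were tested, 4 were called higher (Igf1, Igfbp3, Igfbp5, Igfbp6) and 1 lower (Igfbp7), where 41.5% of all genes were called higher and 5.01% lower. The median ratio of the genes tested was 1.64 here. With the median scaling the split was 4 higher and 2 lower, again with no share of all genes counted. Both comparisons with the kidney 15 min library thus stand beside large shares of all genes that moved the same way.

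In the tumor 15 min library against control 0 of 8 members were called, against 5.55% of all genes either way. In the 60 min library against control 5 of 8 were called higher and 0 lower, against 8.14% and 1.99% of all genes: Igf1 8.17-fold, Igfbp4 4.56-fold, Igfbp7 3.83-fold, Igfbp2 3.46-fold and Igfbp3 2.75-fold. The members' median ratio was 3.11 there and the median of all genes tested 1.00. Against the 15 min library 4 of 8 were called higher (Igf1, Igfbp2, Igfbp4, Igfbp7) and 1 lower (Igfbp5, 2.18-fold), with 8.52% and 4.99% of all genes. The median scaling gave 6 higher and 0 lower there, with no share of all genes counted under it. These comparisons share libraries, so the counts are not independent of each other.

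The mix of cell classes moved with these totals. Endothelial-like cells gave 6.99%, 2.36% and 19.0% of kidney UMIs at the control digest, the 15 min and the 60 min interval, and proximal tubule cells gave 51.5%, 90.1% and 34.3%. In the tumor, endothelial-like cells gave 3.32%, 3.45% and 11.0%, fibroblast-like cells 0.702%, 0.946% and 4.44%, and epithelial cells 62.3%, 72.4% and 43.2%. Each library's class levels were also weighted by the class shares of the control, leaving out classes with no cells in a library of the pair. With these weights 0 members were called in the kidney 15 min against control comparison and 1 (Igfbp2) in the 60 min against control comparison. The share of all genes called with these weights was not counted. In the tumor 60 min against control comparison 2 were called on this basis, Igf1 at 3.74-fold and Igfbp2 at 2.03-fold, while Igfbp4 was at 1.88, Igfbp7 at 1.42 and Igfbp3 at a log2 ratio of 0.01.

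**Figure D2:**
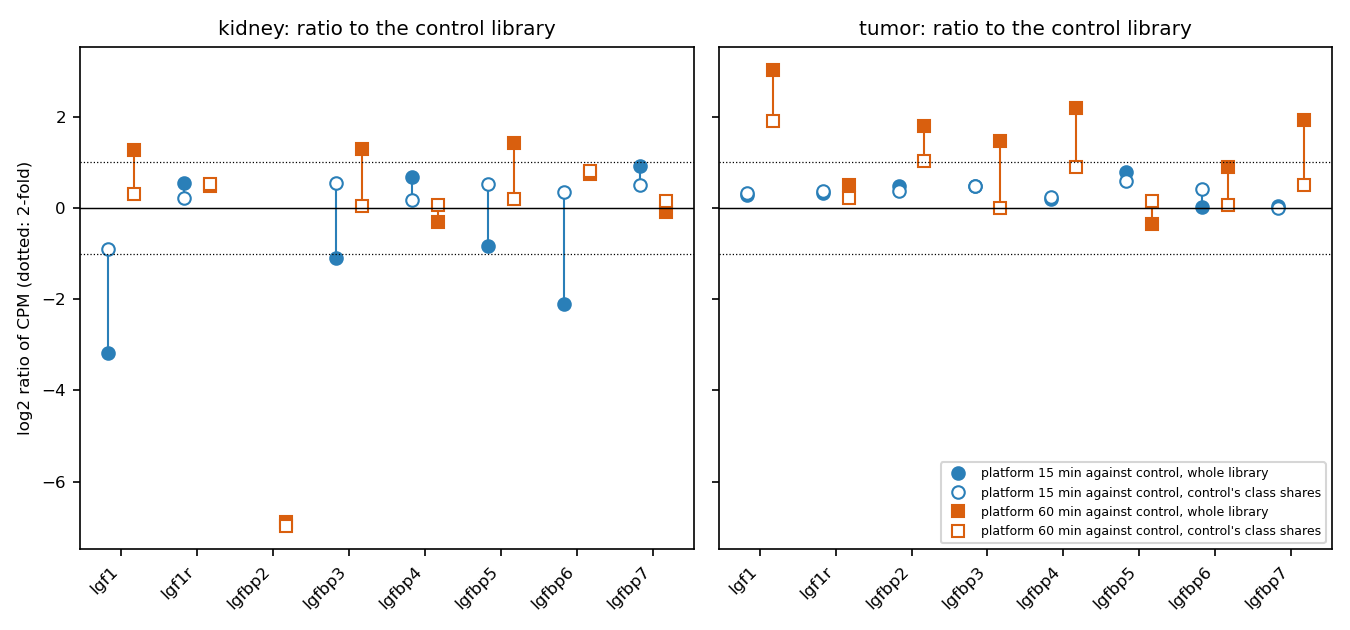
Log2 ratio of each gene's CPM to the control library for the 15 min and 60 min platform libraries, as measured in whole libraries (filled) and after weighting class levels by the control's class shares (open); dotted lines mark 2-fold. The open points lie within 2-fold of the control for every gene except Igfbp2 in kidney at 60 min and Igf1 and Igfbp2 in tumor at 60 min; genes with 0 UMIs on a side have no point.

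The class that held most of a gene's UMIs differed between the genes. In kidney, endothelial-like cells held 92.1%, 93.8% and 92.5% of Igfbp3 UMIs over the 3 libraries in the order used above, 87.4%, 75.4% and 91.8% of Igfbp5 UMIs and 66.7%, 65.5% and 76.1% of Igf1 UMIs. Proximal tubule cells held 80.9%, 97.1% and 71.9% of Igfbp4 UMIs, 70.3%, 96.4% and 59.2% of Igfbp7 UMIs and 61.9%, 93.7% and 46.4% of Igf1r UMIs. The 3 genes held mainly by vessels were lowest in the 15 min library, and the 3 held mainly by proximal tubule were highest there. For Igf1r the intervals of the 15 min and 60 min libraries overlap.

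In the tumor, epithelial cells held 97.9%, 98.2% and 95.3% of Igfbp5 UMIs, and endothelial-like cells held 92.9%, 94.4% and 88.6% of Igfbp3 UMIs and 79.5%, 79.3% and 76.4% of Igfbp7 UMIs. The main holder of the other binding proteins changed between libraries. For Igfbp2 it was the epithelial class with 80.0% and 88.6% in the control and 15 min libraries and the fibroblast-like class with 59.3% at 60 min. For Igfbp6 it was the granulocyte class with 47.4% in the control and the fibroblast-like class with 63.0% and 78.1% in the platform libraries. For Igfbp4 it was the endothelial-like class with 47.1% in both the control and the 15 min library, then the fibroblast-like class with 41.8% at 60 min.

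**Figure D3:**
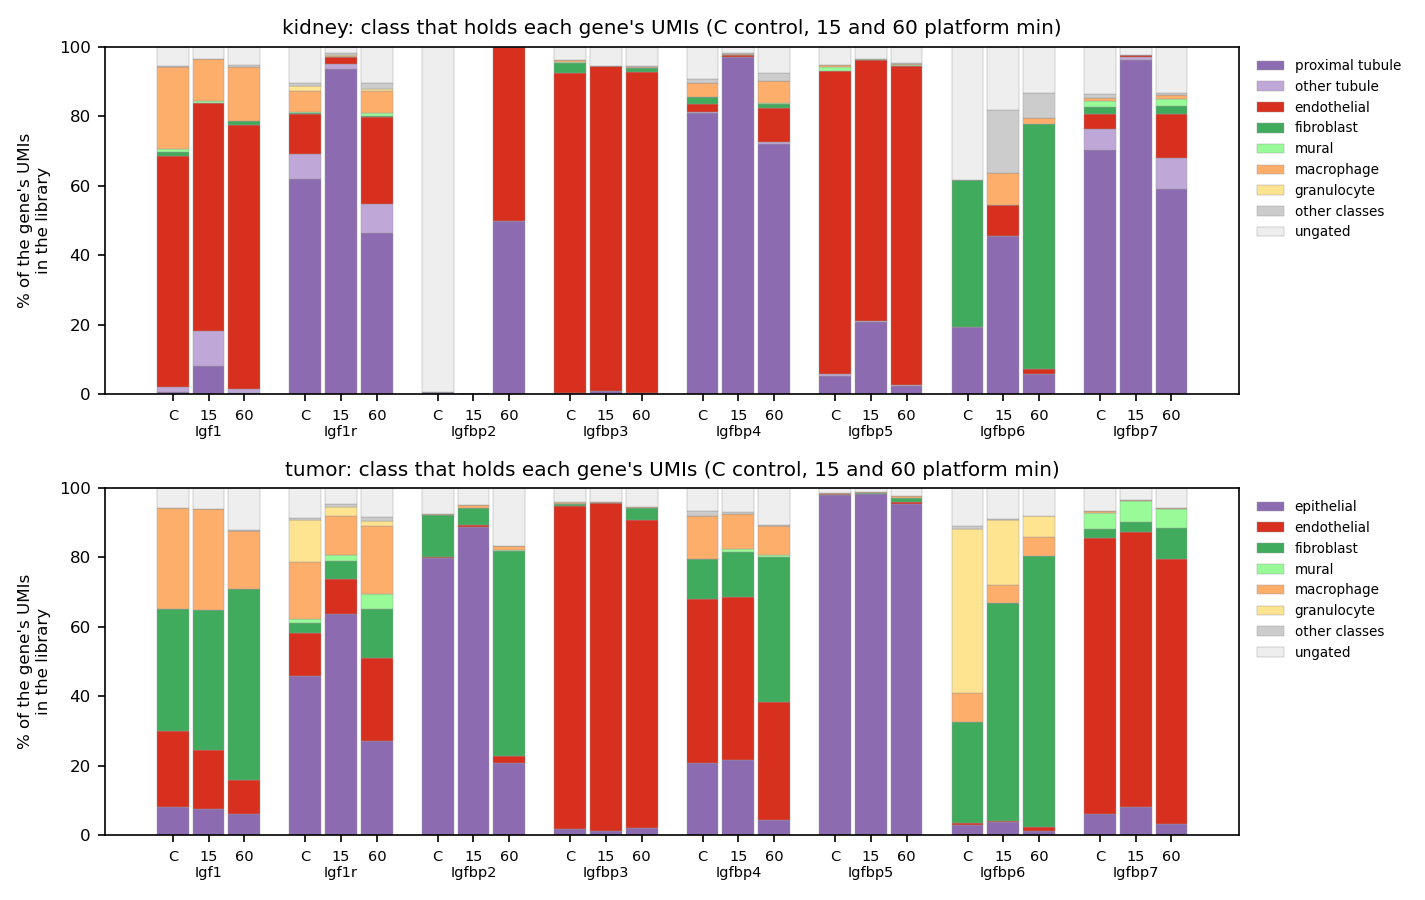
Share of each gene's UMIs (percent of the gene's UMIs in a library) held by each cell class, 1 bar per library (C control, 15 and 60 the platform intervals), kidney above and tumor below. Kidney Igfbp3 and Igfbp5 bars are mostly endothelial and Igfbp4 and Igfbp7 bars mostly proximal tubule, while tumor Igfbp5 bars are almost wholly epithelial; kidney Igfbp2 and Igfbp6 bars rest on 0 to 152 UMIs.

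Within the kidney classes, Igfbp3 was at 1078, 1524 and 984 CPM in endothelial-like cells of the control, 15 min and 60 min libraries (556, 374 and 2444 cells). A UMI was found in 64.0%, 78.1% and 65.3% of these cells, and in 40.9%, 55.9% and 42.3% after each cell was thinned to 1000 UMIs. In T lymphocytes, which should lack the gene, 0 to 0.487% of cells had a UMI, or 0 in every library after thinning. The median endothelial-like cell had 3888 UMIs and the median T lymphocyte 5204.5, so the higher share was found in the shallower cells.

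Igfbp5 was at 4212, 6066 and 4362 CPM in the same endothelial-like cells, with a UMI in 75.7% to 87.7% of them and in 69.5% to 82.7% after thinning. The next level was in mural cells (pericytes, mesangial and smooth muscle), at 1219 CPM in the control and 834 in the 60 min library. Intercalated cells, which handle acid and base in the collecting duct, held 192, 357 and 289 CPM, against 45.8 CPM over all proximal tubule cells and 0 to 6.77 CPM in T lymphocytes. Intercalated cells were thereby the only tubule class where Igfbp5 passed 100 CPM.

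Igf1 in kidney endothelial-like cells was at 207 CPM in the control, 66.8 in the 15 min library and 209 in the 60 min library. The 15 min library stood apart as the low value, 3.09-fold below the control, and Igf1 was the only member of the 6 tested in this class to be called there, where 2.23% of all genes were called lower. At 60 min it was 3.13-fold above the 15 min library, where 2.22% of all genes were called higher. A UMI was found in 25.7%, 9.89% and 28.1% of cells, and in 12.7%, 4.32% and 14.0% after thinning, while T lymphocytes showed 0 to 0.487%. In the 15 min library 48.5% of the 97 UMIs came from 5 cells, against 13.6% and 4.76% in the other libraries. Proximal tubule markers in the endothelial-like cells were highest in that library too, at 289 CPM against 115 and 161 CPM, and their part in the result was not tested. Macrophages held the next well-counted level, 31.4, 27.6 and 49.0 CPM.

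Across the kidney, 3 of the 6 members tested (Igf1, Igfbp3 and Igfbp5) were at least 2-fold above every other class in endothelial-like cells of all 3 libraries, among classes with at least 20 cells, where 2.51% of all genes were. Igfbp4 was so in proximal tubule cells, where 2.62% of all genes were, at 287, 317 and 309 CPM with a UMI in 74.1% to 82.7% of cells (24.2% to 27.7% after thinning). T lymphocytes held 69.9, 116 and 64.5 CPM and endothelial-like cells 61.2, 82.0 and 76.3 CPM, and the intervals of these classes overlap in all 3 libraries. The class calls depend on the gate: with 2 markers and a lead of 1, or with all deposited cells, fibroblast-like cells were the highest class at 60 min for Igf1 (314 or 308 CPM), Igfbp3 (1292 or 1562 CPM) and Igfbp4 (914 or 965 CPM), which ends the calls of these 3 genes and leaves that of Igfbp5.

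Igfbp7 was spread over the kidney. Among classes with at least 20 cells, mural cells had the highest level in the control and 60 min libraries, 3588 and 2710 CPM, with a UMI in all 20 control cells and in 97.6% of the 41 cells at 60 min. Proximal tubule cells held 821, 1222 and 971 CPM, thick ascending limb cells 974, 1378 and 933 CPM and collecting duct principal cells 1588 and 1136 CPM in the control and 60 min libraries. Intercalated cells stood out among the tubule classes with 107, 84.6 and 179 CPM. Endothelial-like cells held 365, 200 and 374 CPM, below proximal tubule cells in every library.

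Igf1r was at 40.7, 51.1 and 63.8 CPM in proximal tubule cells and 89.4, 123 and 112 CPM in thick ascending limb cells. The highest level in the control and 60 min libraries was in granulocytes, 209 and 140 CPM, counted from 16 and 18 UMIs, and the intervals overlap those of thick ascending limb cells. Only 26 kidney cells passed the fibroblast markers, under 20 in each library, and these pooled cells held 6511 CPM of Igfbp7, 1344 of Igfbp4, 1289 of Igfbp3, 366 of Igfbp6 and 260 of Igf1. Mural markers were at 613 CPM in them. They held 11 of 26 Igfbp6 UMIs of the control library and 48 of 68 of the 60 min library.

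**Figure D4:**
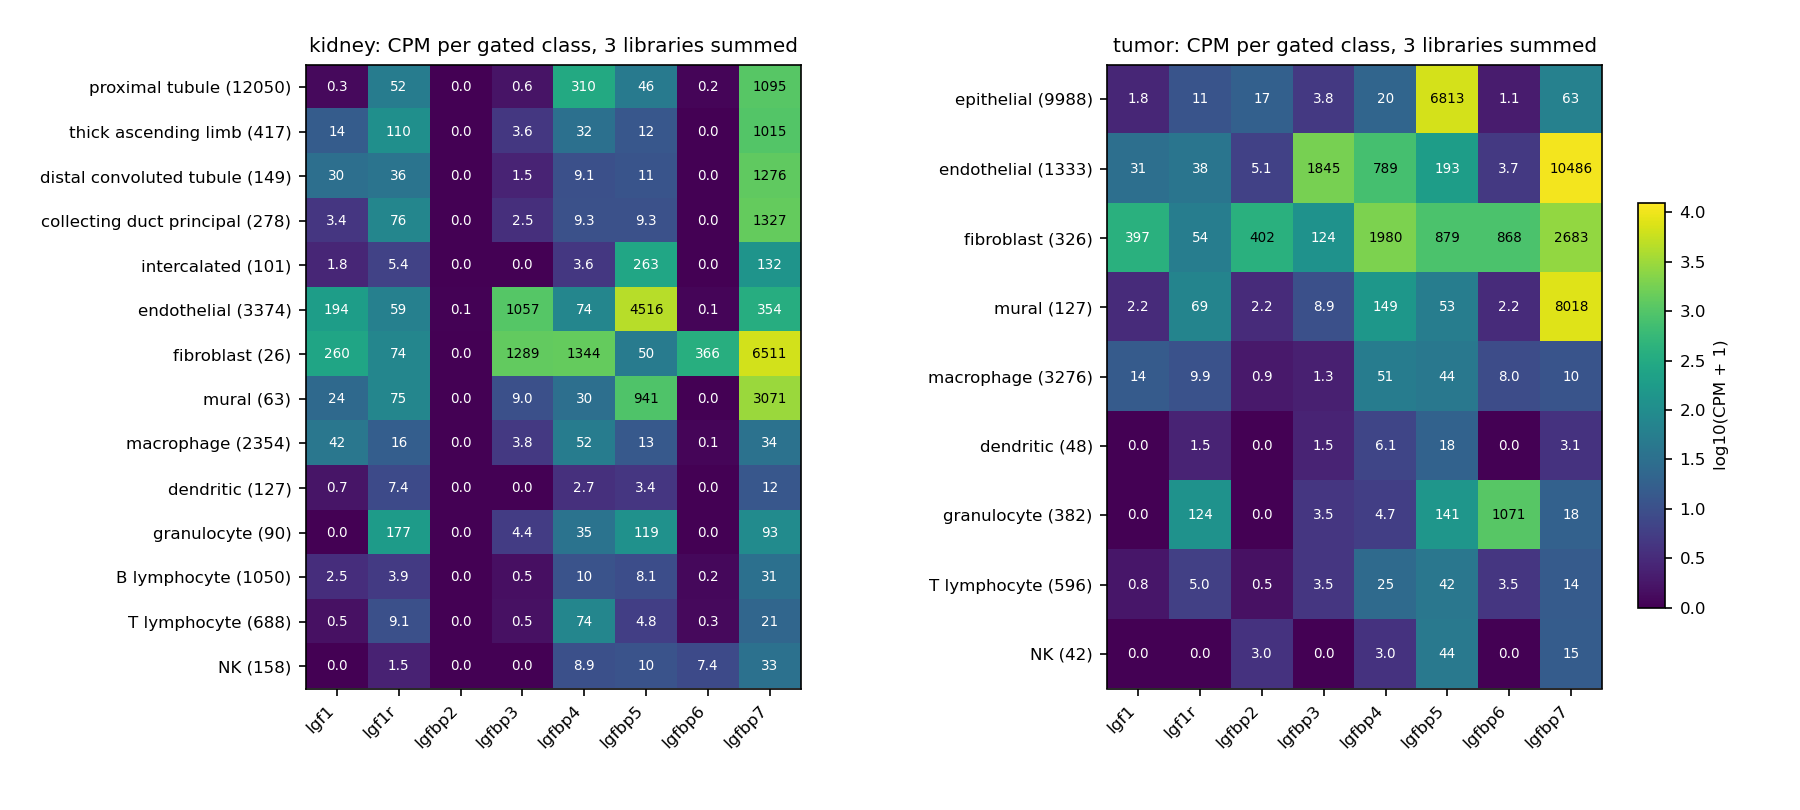
CPM of each of the 8 genes (columns) in each gated class (rows, with its number of cells), 3 libraries summed, shaded by log10(CPM + 1). Igfbp3 reaches 1057 CPM in kidney and 1845 CPM in tumor endothelial-like cells, while Igfbp5 reaches 4516 CPM in kidney endothelial-like cells and 6813 CPM in tumor epithelial cells.

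In the tumor, Igfbp5 was the member of the epithelial cells, at 5557, 8233 and 6146 CPM in the control, 15 min and 60 min libraries, with a UMI in 94.6% to 97.3% of cells and 86.8% to 92.5% after thinning. It was at least 2-fold above every other class there in all 3 libraries, where 2.93% of all genes were. The gene was also read in cells that should lack it: T lymphocytes held 32.6, 70.9 and 28.8 CPM and macrophages 34.0, 75.5 and 32.7 CPM, in both highest at 15 min as in the epithelial cells. In T lymphocytes 21.6%, 36.3% and 14.1% of cells had a UMI, and 3.24%, 9.55% and 4.44% after thinning. Igfbp5 was called higher at 15 min than in the control in macrophages (2.22-fold, where 8.72% of all genes were called higher), granulocytes (2.46-fold, 5.63%) and T lymphocytes (2.18-fold, 3.7%). Granulocytes held more than T lymphocytes, at 109, 268 and 74.0 CPM, with a UMI in 19.7%, 47.3% and 14.0% of cells and in 9.95%, 30% and 5.56% after thinning. The source of these UMIs was not tested. Fibroblast-like cells held 849, 1079 and 842 CPM.

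Igfbp7 reached the highest levels in tumor vessels: 9771, 9730 and 10899 CPM in endothelial-like cells, with a UMI in 97.2% to 99.3% of them and in 95.6% to 99.0% after thinning. Mural cells held 6918 CPM at 15 min and 8436 CPM at 60 min, so the endothelial-like level was above the mural one by less than 2-fold. Fibroblast-like cells held 1538, 1274 and 3124 CPM, against 6.53 to 26.0 CPM in T lymphocytes.

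Igfbp3 was at 1969, 2684 and 1563 CPM in tumor endothelial-like cells, at least 2-fold above every other class in all 3 libraries (2% of all genes were). The 15 min library was highest in tumor as in kidney, with less than 2-fold between libraries in both tissues. Igfbp4 was shared between endothelial-like cells, at 777, 861 and 772 CPM, and fibroblast-like cells, at 900, 852 and 2356 CPM. In the control and 15 min libraries the intervals of the 2 classes overlap, and at 60 min they are apart with the fibroblast-like class higher.

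The fibroblast-like class of the tumor held 5 members above 2-fold against control in the 60 min library, of 8 tested, where 4.96% of all genes in that class were called higher. Igf1 was at 225, 231 and 454 CPM in the control, 15 min and 60 min libraries, Igfbp2 at 186, 77.1 and 497 CPM, and Igfbp4 and Igfbp7 as given above. Igfbp3 in this class was lower, at 73.1, 23.1 and 151 CPM. Against the 15 min library 4 members were called higher, Igfbp2 (6.45-fold), Igfbp3 (6.55-fold), Igfbp4 (2.77-fold) and Igfbp7 (2.45-fold), where 3.93% of all genes were. At 15 min Igfbp2 and Igfbp3 were called lower than in the control, where 3.17% of all genes were. Igf1 and Igfbp2 were at least 2-fold above every other class there in all 3 libraries, where 1.75% of all genes were.

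Only 33 and 62 fibroblast-like cells stood behind the control and 15 min values, against 231 at 60 min, and few cells carried some of them. In the control all 66 Igfbp2 UMIs came from 5 cells, 40.9% from 1 of them, and the 5 richest cells for each gene held 65% of 80 Igf1 UMIs and 66.6% of 320 Igfbp4 UMIs. At 15 min 72.5% of 40 UMIs came from 1 cell. The cells also differed in other markers: epithelial markers in this class were at 444, 94.4 and 41.5 CPM and mural markers at 172, 146 and 420 CPM, and their part in the result was not tested. Igfbp6 went the other way in these cells, 925, 1513 and 730 CPM, and at 60 min was 2.07-fold below the 15 min library, where 5.01% of all genes were called lower.

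Igfbp6 was the member of the tumor granulocytes as well, at 1010, 1185 and 1151 CPM, with a UMI in 75.2% to 82.5% of cells and in 60.6% to 65.6% after thinning. The 3 intervals overlap, and T lymphocytes held 2.11 to 5.32 CPM. In kidney the same class of 90 cells had 0 Igfbp6 UMIs, which allows up to 13.2 CPM, again at 3 UMIs. Granulocytes also had the highest tumor Igf1r, 130, 111 and 115 CPM, with intervals apart from the next class in the control only.

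Low Igf1 counts also moved in tumor epithelial cells and in macrophages, while T lymphocytes held 0, 0 and 2.11 CPM. Epithelial cells held 0.570, 0.554 and 5.23 CPM, 9.18-fold higher at 60 min than in the control on 131 and 18 UMIs (2.15% of all genes were called higher in this comparison), while fibroblast markers in the same cells went from 8.17 and 9.32 to 46.7 CPM. Macrophages held 6.20, 9.64 and 20.8 CPM with fibroblast markers at 6.95, 6.65 and 27.2 CPM. Their part in the Igf1 values was not tested. Endothelial-like cells held 29.7, 27.0 and 32.3 CPM, with all 3 intervals overlapping. Over all classes and comparisons, 32 of 111 tumor values of members were called (25 higher, 7 lower), against 5.77% of all genes over the same comparisons. In kidney 4 of 81 were called, against 3.74% of all genes.

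Endothelial-like cells were split further by short marker lists. In kidney, 2811 cells passed a set named fenestrated here (Plvap, Nr2f2, Gas6, Cd9), 72 the glomerular set and 69 the arterial set. These names label the marker lists only. Fenestrae were not measured, so the sets do not divide cells with fenestrae from cells without them. Igf1 was at 222 CPM in the fenestrated cells, 10.7-fold above the 20.8 CPM of the glomerular cells, and at 2 UMIs in the arterial cells. By library the fenestrated cells held 242, 77.2 and 239 CPM in the control, 15 min and 60 min libraries, so the low 15 min value was found inside this set too. Igfbp5 had another order, 7671 CPM in glomerular, 4375 in fenestrated and 553 in arterial cells, a 13.9-fold range. Igfbp7 was at 3227 CPM in arterial cells, 279 in fenestrated and 48.5 in glomerular cells, with mural markers at 66.9, 9.65 and 6.93 CPM in the same order, whose part was not tested. Igfbp3 varied less than Igf1, Igfbp5 and Igfbp7, at 1561, 976 and 1486 CPM in arterial, fenestrated and glomerular cells. Igf1 was highest in fenestrated cells, Igfbp5 in glomerular cells and Igfbp7 in arterial cells in 3 of 3 libraries, though only 6 to 9 arterial or glomerular cells stood behind each value of the control and 15 min libraries.

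In the tumor, 200 endothelial-like cells passed the arterial set, 339 the tip set, which marks sprouting vessels, and 333 the venous set. Igfbp3 was at 3840 CPM in arterial, 2499 in tip and 433 in venous cells, an 8.86-fold range with the same order in 3 of 3 libraries. Igf1 was highest in tip cells at 55.8 CPM, 4.97-fold above the 11.2 CPM of venous cells. Igfbp7 differed little, 11823, 11131 and 9121 CPM, and Igfbp4 was at 954, 676 and 873 CPM. Igfbp5 was at 86.7 CPM in arterial, 114 in tip and 197 in venous cells.

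**Figure D5:**
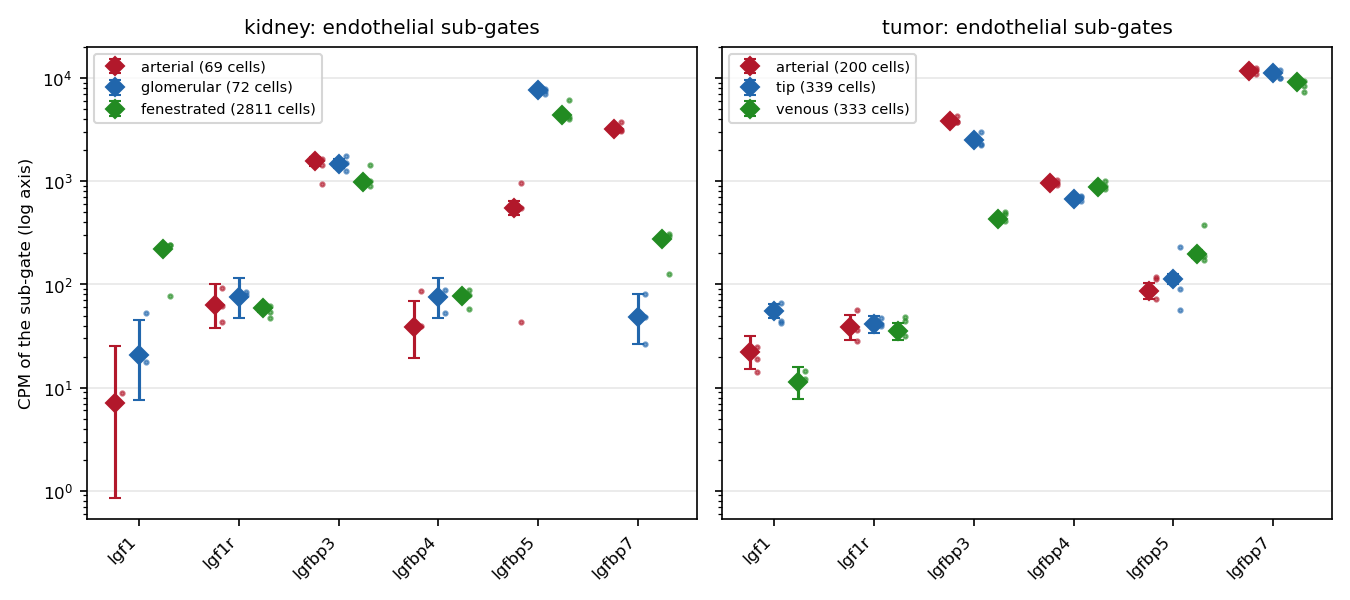
CPM (log axis) of 6 of the genes in the endothelial sub-gates of kidney and tumor, diamonds for 3 libraries summed with exact 95% Poisson bars and small dots for single libraries. Kidney Igf1 is highest in cells of the set named fenestrated (222 CPM) and kidney Igfbp7 in arterial cells (3227 CPM). Tumor Igfbp3 falls from arterial (3840 CPM) to venous cells (433 CPM).

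Macrophages were split by a Folr2 set (Folr2, Pf4, Mrc1, Cd163) and a Cx3cr1 set (Cx3cr1, Tmem119, Siglech, P2ry12). Igf1 was higher in the Folr2 set in both tissues, at 79.3 against 17.6 CPM in kidney (4.51-fold) and 87.4 against 3.07 CPM in tumor (28.5-fold), in 3 of 3 libraries each. In kidney, endothelial markers were at 23.6 against 14.1 CPM and mural markers at 23.8 against 6.16 CPM in these sets, and their part in the Igf1 difference was not tested. In the tumor the Folr2 set held 39.1, 76.7 and 112 CPM of Igf1 in the control, 15 min and 60 min libraries. In the tumor Igfbp4 was at 246 against 21.4 CPM and Igfbp6 at 35.9 against 3.39 CPM in the same sets, with fibroblast markers at 26.6 against 13.2 CPM, whose part was not tested.

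Of 9988 tumor epithelial cells, 124 passed the basal set. They held 1046 CPM of Igfbp7 against 51.3 in the other epithelial cells (20.4-fold), 118 CPM of Igfbp3 against 2.36 and 104 CPM of Igfbp2 against 15.7 (6.61-fold), each in the same order in 3 of 3 libraries. Igfbp5 was not among these differences, at 6057 against 6822 CPM. The basal set holds smooth muscle genes, and mural markers were at 664 CPM in the basal cells against 27.6 CPM in the others, whose part was not tested. Of the 120 basal Igfbp2 UMIs, 76 came from 3 cells of the control library. In the platform libraries the basal cells held 80.2 CPM at 15 min and 31.5 CPM at 60 min, against 18.1 and 17.3 CPM in the other epithelial cells.

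The same class could be set side by side in both tissues, with the limits on strain, sex, age and scaling given above. Endothelial-like cells of the tumor held 10486 CPM of Igfbp7 against 354 in kidney, 29.6-fold higher, and 789 CPM of Igfbp4 against 74.3, 10.6-fold higher. Kidney endothelial-like cells held 4516 CPM of Igfbp5 against 193 in tumor, 23.3-fold higher, and 194 CPM of Igf1 against 30.9, 6.27-fold higher. The ranges over the 3 libraries of each tissue were apart for each of these genes. Igfbp3 differed by 1.74-fold. Mural cells showed the same directions, with Igfbp5 17.6-fold higher in kidney and Igfbp7 2.61-fold higher in tumor. Igf1r differed by 1.58-fold in endothelial-like cells and 1.08-fold in mural cells.

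Of 20 other genes of the pathway, Igf2, the ligand of fetal life, had 0 UMIs in every named class of both tissues. In kidney, 11 reached 50 CPM in a class. Each level given for these list genes in either tissue is the highest of any 1 library. Ghr, the growth hormone receptor, reached 320 CPM in proximal tubule cells, Insrr, an alkali-sensing relative of the insulin receptor, 152 CPM in intercalated cells and Insr 82.6 CPM in endothelial-like cells. Pappa, a protease of Igfbp4 and Igfbp5, and its inhibitor Stc1 both peaked in collecting duct principal cells, at 116 and 70.1 CPM. The protease gene Htra1 peaked in mural cells (178 CPM), the adaptor Irs1 in intercalated cells (75.2 CPM) and Irs2 in B lymphocytes (183 CPM). The Irs1 value came from the 20 intercalated cells of the 15 min library. For Insr, Pappa, Stc1 and Htra1 the named class was the highest in 2 of 3 libraries. The highest values of the receptor adaptors Grb14 (223 CPM) and Grb10 (93.6 CPM), in mural cells, and of Igf2r, which clears IGF-2, in granulocytes (65.2 CPM, from 5 UMIs), each came from 1 library, and that class was the highest in 1 of 3 libraries only.

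In the tumor 11 reached 50 CPM too. The proteases Htra3 and Htra1 reached 647 and 468 CPM in fibroblast-like cells, which also had the highest Ghr (102 CPM), Igf2r (92.5 CPM), Stc2 (90.8 CPM) and Shc1 (57.8 CPM). Insr (303 CPM), Stc1 (183 CPM) and Grb10 (131 CPM) peaked in endothelial-like cells, Irs2 (84.1 CPM) in macrophages and Igfals, which codes for a partner of IGF and its binding protein in blood, in epithelial cells (61.6 CPM). The named class was the highest in 2 of 3 libraries for Igf2r, Stc2, Shc1 and Irs2, and in all 3 for the others. In whole libraries, 3 of 14 list genes tested were called higher and 0 lower in the tumor 60 min against control comparison (8.14% and 1.99% of all genes), and 2 of 16 higher and 0 lower in kidney (8.58% and 0.813%). In the kidney 15 min against control comparison 1 of 15 was called higher and 5 lower (1.98% and 26.6%), and in the tumor 0 of 14 were called (5.55% either way). At 60 min against 15 min, 7 of 16 were called higher and 4 lower in kidney (41.5% and 5.01%), and 3 of 14 higher and 1 lower in tumor (8.52% and 4.99%).

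The genes most like each member were found by Pearson correlation of log2(CPM + 1) over 34 kidney and 22 tumor sums of 1 class in 1 library. These sums share libraries and cell types, so the values describe the pattern only. In kidney they were Cep112, Cracr2b and Unc5b for Igf1 (0.83, 0.83 and 0.83), Peli2, Iqsec2 and Fndc3b for Igf1r (0.81, 0.79 and 0.77), Spaar, Il33 and Lpar4 for Igfbp3 (0.96, 0.96 and 0.94) and Pter, Tprkb and Hykk for Igfbp4 (0.78, 0.76 and 0.76). For Igfbp5 they were Gng11, Lmcd1 and Cldn15 (0.93, 0.87 and 0.86) and for Igfbp7 Zfp503, Galnt18 and Tns1 (0.92, 0.91 and 0.91). Kidney Igfbp2 and Igfbp6 had too few UMIs for their nearest genes, at 0.74 and 0.72 or less, to be read. In the tumor Igfbp7 was nearest to Col4a1, a basement membrane collagen, Msrb3 and Dlc1 (0.98, 0.97 and 0.97), Igfbp3 to Aqp1, Fgd5 and Cdh13 (0.95 each), Igfbp5 to Me1, Xbp1 and Nipal2 (0.94, 0.93 and 0.93) and Igfbp6 to Pi16, Gpc3 and Csf1 (0.95, 0.90 and 0.87). Igf1 was nearest to Gxylt2, Masp1 and Nov (0.92, 0.92 and 0.91), Igf1r to Chmp3, Xxylt1 and Rnf144a (0.93, 0.92 and 0.91), Igfbp2 to Pcsk5, Megf6 and Nfasc (0.94, 0.93 and 0.93) and Igfbp4 to Oaf, Csgalnact1 and Pir (0.95, 0.94 and 0.93).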

How the data were processed

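The deposited values were raw UMI counts per gene and cell in 2 matrices, 1 per tissue. The authors aligned reads to mm10 and counted UMIs with Cell Ranger 3.1.0, and joined the 3 libraries of a tissue after equalising their depth, so the counts of kidney and tumor were scaled separately. The library of each cell was read from the suffix of its barcode, and the label of each library from the sample descriptions. 0 columns of other samples were present.

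Cells with more than 200 and fewer than 3000 (kidney) or 4000 (tumor) genes and under 50% (kidney) or 25% (tumor) mitochondrial UMIs were kept, after the study's methods. No doublet caller was run. Cells entered a class with at least 3 of 6 markers detected and a lead of 2 over the next class. They entered a subset of an endothelial or macrophage class with at least 2 markers and a lead of 1. Epithelial cells entered the basal subset with at least 3 of 6 basal markers, with no lead needed. UMIs were summed per library and class (Python 3.11.15, numpy 2.4.6, scipy 1.17.1, pandas 2.3.3), and clusters for one alternative were made with scanpy 1.11.5 and leidenalg 0.10.2. With 1 library per condition no test between protocols was made. Intervals are exact at 95% and cover counting error only, and a share of 0 allows up to 3 counts. The calling code was tested on simulated data.

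All 8 members are reported in each tissue. Other pathway genes are named at 50 CPM or more in a class of at least 20 cells, and for each member the 3 genes with the highest correlation among genes with at least 100 UMIs in the tissue. The members, the marker lists and the pathway list were chosen with earlier results of these data known. Alternatives were another scaling, fold limit, gate, cell filter and class weighting. Upstream bases came from RefSeq (GRCm38.p6) and gene positions from GENCODE vM21.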

Additional observations from a re-analysis of the deposited data

Results flagged for a closer look

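The ratios given here pointed up in one tissue and down in the other, with counting intervals apart in both and a difference of at least 2-fold in at least 1 of them. Other members, such as Igfbp5 at 15 min against control (0.565 in kidney and 1.72 in tumor), also pointed opposite ways but did not meet all of these conditions. No replicate exists, so none of these differences was tested. At 15 min against control the Igfbp3 ratio was 0.469 in kidney and 1.39 in tumor. At 60 min against control it was 0.00846 and 3.46 for Igfbp2 (the kidney value rests on 2 and 152 UMIs, with a counting interval of 0.00102 to 0.0311), 0.808 and 4.56 for Igfbp4, 2.68 and 0.787 for Igfbp5, and 0.935 and 3.83 for Igfbp7. At 60 min against 15 min it was 0.501 and 3.97 for Igfbp4, 4.75 and 0.459 for Igfbp5, and 0.492 and 3.70 for Igfbp7. The classes that hold Igfbp4, Igfbp5 and Igfbp7 also differ between the tissues, as given above, and their part in these differences was not tested.

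Cells outside the limits on genes and mitochondrial share held a higher CPM of some members than the kept cells of the same library. Igf1r was at 102 CPM there against 49.2 in the kidney 15 min library, and Igfbp2 at 0.429 against 0.0382 CPM in the kidney 60 min library, from 26 and 2 UMIs. In the tumor, Igf1 was at 11.4, 12.7 and 110.3 CPM against 4.48, 5.43 and 36.6 in the control, 15 min and 60 min libraries. Igfbp2 was at 52.4, 50.5 and 207 CPM against 10.7, 15.1 and 37.2, and Igfbp6 at 67.1, 46.9 and 142 CPM against 22.3, 22.7 and 41.5. Igfbp4 was at 658 CPM against 250 CPM in the 60 min library.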

How the results depend on the processing

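Of 46 ratios between whole libraries, 46 stayed within 1.5-fold without mitochondrial genes or shared barcodes (the latter chosen after seeing the data), 45 with all deposited cells, 39 with size factors and 20 at the control's class shares. At those shares the counts of called members became 0 (15 min), 1 (60 min) and 1 (60 against 15 min) in kidney, and 2 (60 min) and 1 (60 against 15 min) in tumor. How many of all genes were called at the control's class shares was not counted. By construction this setting removes differences in class shares. Among ratios called in whole libraries, it turned the log2 ratio of kidney Igfbp3 and Igfbp6 at 15 min to 0.55 and 0.35. It also turned those of kidney Igfbp3, Igfbp5 and Igfbp6 at 60 against 15 min to -0.51, -0.31 and -0.60. The fibroblast-like class, with 0 cells in the kidney 15 min library, was left out of these kidney values. It held 42.3% and 70.6% of kidney Igfbp6 UMIs in the control and 60 min libraries. Some ratios that were not called also changed sign, such as tumor Igfbp3 at 60 against 15 min, from 0.98 to -0.48. A fold limit of 1.5 called 7 of 8 members in kidney (44.1% of all genes) and 1 of 8 in tumor (17.6%) at 15 min against control, and 14 of 81 kidney values within classes (7.53%). A gate of 2 markers and a lead of 1 called 18 of 99 such values (4.28% of all genes) in place of 4 of 81 (3.74%). Kidney members with 1 highest class in all 3 libraries fell from 4 to 1 with that gate and to 1 with all deposited cells, and were 6 without the 15 min library (chosen after seeing the data). The cause was not tested. The tumor counts were 6 to 8 over these settings. Within tumor classes 27 to 40 values were called. The share of all genes called within tumor classes was 5.77% in the main setting and 11.8% at a fold limit of 1.5. It was 5.6% with a gate of 4 markers and a lead of 3, and 5.9% with 2 markers and a lead of 1. Shares for the other settings were not counted. No paired analysis was possible because each condition has 1 library per tissue, and for the same reason no replicate could be left out. Kidney Igfbp2 had 0 to 152 UMIs per library and kidney Igfbp6 11 to 68.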
